A study of Mus musculus with 16 samples.

Results

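The Sonic hedgehog pathway and the floor plate were described through 8 genes, Shh, Ptch1, Smo, Gli1, Gli2, Gli3, Hhip and Corin, among the 19938 mouse genes that could be named on the arrays. Each was found by its symbol and is read by the probe set that carries no other symbol and has the highest mean over all 16 arrays. All 8 were measured. The study measured RNA with microarrays in midbrain dopaminergic neurons (mdDA neurons, the cells that make dopamine in the ventral midbrain), either differentiated from induced pluripotent stem cells (iPSCs) or taken from embryos, and compared iPSC-derived cells with and without added WNT1 and DKK3. The treated group holds 5 biological replicates of iPSC-derived cells differentiated with recombinant human WNT1 and DKK3, and the control group holds 5 biological replicates of iPSC-derived cells without these proteins. Primary neurons came from the ventral midbrain at the embryonic (E) days E14.5 and E13.5, sorted for GFP by flow cytometry (FACS), with 3 technical replicates at each stage, so that each stage is 1 sample. All groups share the genotype Pitx3GFP/+, in which 1 copy of Pitx3, a transcription factor gene of dopaminergic neurons, carries GFP, and the strain C57BL/6 x 129/Ola (mixed). All of these cells therefore carry the GFP allele, and no array without it was analysed here. The design text says that the iPSC-derived cells were sorted for GFP too. Nothing used here says whether the biological replicates were separate cultures or separate iPSC lines, and the p-values cover only the spread that these arrays show, which may be technical.

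Hedgehog signalling is one of the main ways in which a developing tissue learns position. Shh is the secreted ligand. Without it the receptor Ptch1 holds the membrane protein Smo inactive, and with it Smo is released and acts at the primary cilium on the Gli transcription factors, of which Gli2 is mostly an activator and Gli3 mostly a repressor. Gli1, Ptch1 and Hhip, a decoy receptor that binds the ligand, are themselves switched on by the pathway, and Ptch1 and Hhip damp it. The midbrain floor plate, the ventral midline from which mdDA neurons arise, makes Shh and is marked by Corin, a membrane serine protease.

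The regions before the gene starts are shown for Smo, Gli2 and Gli3, which were all higher in iPSC-derived cells, and for Ptch1, a pathway target with no detected difference. Each is the 250 bases before a transcript start, from RefSeq's table of the build GRCm38.p6, read 5′ to 3′ on the strand of the gene. For Smo, Gli3 and Corin this start is the outermost one of the gene, while for Ptch1, Gli2 and Hhip it lies 7725, 786 and 52 bases inside the gene, so their windows and CpG counts belong to an inner start. CpG dinucleotides are in capitals. Smo lies on the plus strand at chr6:29735247-29735496, Gli2 on the minus strand at chr1:119053620-119053869, Gli3 on the plus strand at chr13:15463473-15463722 and Ptch1 on the minus strand at chr13:63565736-63565985.
Smo: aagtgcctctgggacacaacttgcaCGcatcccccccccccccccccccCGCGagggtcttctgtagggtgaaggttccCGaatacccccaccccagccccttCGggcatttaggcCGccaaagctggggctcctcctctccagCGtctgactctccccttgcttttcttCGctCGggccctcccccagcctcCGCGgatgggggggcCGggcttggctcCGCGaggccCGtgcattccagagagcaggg
Gli2: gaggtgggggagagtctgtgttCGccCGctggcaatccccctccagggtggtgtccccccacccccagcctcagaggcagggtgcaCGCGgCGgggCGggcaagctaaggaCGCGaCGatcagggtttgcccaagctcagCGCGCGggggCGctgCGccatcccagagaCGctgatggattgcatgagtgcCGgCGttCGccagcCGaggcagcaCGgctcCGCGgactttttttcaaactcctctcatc
Gli3: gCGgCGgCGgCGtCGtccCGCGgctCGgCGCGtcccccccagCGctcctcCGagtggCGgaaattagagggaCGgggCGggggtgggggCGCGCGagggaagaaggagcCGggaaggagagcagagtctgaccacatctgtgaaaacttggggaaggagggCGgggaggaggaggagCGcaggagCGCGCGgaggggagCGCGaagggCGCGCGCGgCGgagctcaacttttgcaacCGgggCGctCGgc
Ptch1: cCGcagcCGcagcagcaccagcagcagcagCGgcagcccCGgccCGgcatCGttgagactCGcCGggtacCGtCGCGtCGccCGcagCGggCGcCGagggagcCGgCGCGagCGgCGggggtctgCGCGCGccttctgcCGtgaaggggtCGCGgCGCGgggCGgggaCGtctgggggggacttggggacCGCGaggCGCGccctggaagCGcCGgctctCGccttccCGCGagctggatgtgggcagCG

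The Ptch1 window holds 41 CpG dinucleotides, a count reached by 1.09% of the 32851 windows in the table. The Gli3 window holds 34, a count reached by 3.53%, and the Gli2 window holds 22, reached by 14.8%. Smo has 15 CpG, reached by 27.3%, and the median over all windows is 6. Of the 6 members whose windows are in the table, Hhip has 28 CpG and Corin has 2, a count that 81.2% of the windows reach. Gli3 was higher in iPSC-derived cells, and Ptch1, whose window lies at an inner start, had no detected difference. A link between CpG counts and these differences was not tested. The 9 letters GACCACCCA, a Gli binding motif, were searched on both strands (reverse complement TGGGTGGTC) and stand in 0 of the 6 windows and in 74 of the 32851, or 0.225%. The absence of these letters from 250 bases says nothing about binding elsewhere.

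The levels are log2 values on the scale of the array summary, on which a difference of 1 is a doubling of signal, and the level of one probe set is not set against that of another. Array medians over all probe sets lay between 5.85 and 6.02, and a typical gene (the median over genes) had an SD of 0.195 among treated, 0.189 among control, 0.215 among E14.5 and 0.228 among E13.5 arrays. The labelled cell type was checked with 12 dopaminergic markers, all of which were lower in iPSC-derived cells than in primary neurons. Their mean level was 5.68 to 7.78 on treated and 5.74 to 7.43 on control arrays, against 9.59 to 9.75 on E14.5 and 9.39 to 9.84 on E13.5 arrays. The treated and the control array numbered 5 stand apart. Th, the rate-limiting enzyme of dopamine synthesis, was at 9.22 on treated array 5 and at 5.29 to 5.93 on the other treated arrays, and at 8.52 on control array 5 and 5.34 to 6.17 on the other control arrays. Both iPSC-derived groups thus go against their label on most arrays, and they are called iPSC-derived cells below. Most counts of differing genes that follow are also given without the arrays numbered 5.

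WNT1 and DKK3 made no detectable difference to any of the 8 genes. The ligand Shh, the receptor Ptch1, the transducer Smo, the 3 Gli factors, the decoy Hhip and the floor plate marker Corin overlapped between treated and control arrays. The iPSC-derived cells, with or without the 2 proteins, differed from primary neurons in 4 of the 8: Shh was lower, and Smo, Gli2 and Gli3 were higher. Among primary neurons, Gli3 was lower at E14.5 than at E13.5.

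Shh was at 5.55, 5.44, 5.60, 5.68 and 5.66 on the 5 treated arrays and at 5.47, 5.46, 5.86, 5.58 and 5.81 on the 5 control arrays. It was at 6.70, 6.83 and 6.79 on the E14.5 arrays and at 7.20, 6.74 and 6.93 on the E13.5 arrays. Every primary array was above every iPSC-derived array, with a gap of 0.845 between the nearest of them, while treated and control arrays overlapped, as did the 2 stages. The treated mean was 5.59 ± 0.095 and the control mean 5.64 ± 0.18 (SD, n = 5 each). On each array Shh stood between the 42.4 and 70.0 percentile of all probe sets.

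Ptch1, the receptor and a target of the pathway, was at 8.62, 8.35, 8.36, 8.04 and 7.85 on treated arrays and at 8.09, 8.37, 8.65, 7.94 and 8.17 on control arrays. It was at 8.27, 8.32 and 8.46 at E14.5 and at 8.60, 8.21 and 8.15 at E13.5. All 4 groups overlapped, and treated and control means were both 8.24, with SDs of 0.31 and 0.28 (n = 5 each). Ptch1 stood between the 78.5 and 87.1 percentile of probe sets on every array.

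Smo, the membrane protein that passes the signal on, was at 8.44, 8.09, 8.10, 7.76 and 8.11 on treated arrays and at 7.996, 7.99, 8.27, 7.94 and 8.03 on control arrays. It was at 6.49, 6.89 and 6.70 at E14.5 and at 6.68, 6.65 and 6.63 at E13.5. The iPSC-derived arrays were all above the primary ones, with a gap of 0.869, and the groups within each kind overlapped. Control array 3, at 8.27, was apart from the other control arrays, which were within 7.94 to 8.03.

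Gli1, a target gene that in turn activates others, was at 6.46, 6.21, 6.09, 6.15 and 6.59 on treated arrays and at 6.25, 6.73, 6.28, 6.21 and 6.48 on control arrays. It was at 5.69, 6.07 and 6.04 at E14.5 and at 6.00, 6.24 and 6.03 at E13.5. Treated and control arrays overlapped, as did the 2 stages. The highest E13.5 array was above the lowest iPSC-derived ones, while every E14.5 array was below all iPSC-derived arrays.

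Gli2 was at 6.64, 7.26, 6.92, 6.64 and 7.10 on treated arrays and at 6.69, 7.05, 6.81, 6.85 and 6.90 on control arrays. It was at 6.16, 6.20 and 5.92 at E14.5 and at 5.99, 5.69 and 6.33 at E13.5. All iPSC-derived arrays were above all primary arrays, by a gap of 0.314, and neither treated and control nor the stages separated.

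Gli3 was at 8.26, 8.02, 8.11, 7.53 and 7.78 on treated arrays and at 7.74, 7.97, 7.90, 7.83 and 8.11 on control arrays. It was at 5.71, 5.57 and 5.45 at E14.5 and at 7.31, 7.11 and 6.41 at E13.5. The level was highest on the iPSC-derived arrays, lower at E13.5 and lowest at E14.5, with a gap of 0.214 between the iPSC-derived and the E13.5 arrays and of 0.699 between the E14.5 and the E13.5 arrays. The 3 E13.5 arrays had an SD of 0.473, above the median of 0.228 over genes, and Gli3 stood between the 41.1 and 83.7 percentile of probe sets, a wider span than that of any other member.

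Hhip had low values on every array, between the 25.1 and 35.0 percentile of probe sets. It was at 4.43 to 4.92 on treated, 4.47 to 4.75 on control, 4.66 to 4.74 on E14.5 and 4.70 to 4.91 on E13.5 arrays. The files give no detection call, so it cannot be said that Hhip was above background, and it was the one member left out when the 25% of genes with the lowest means were removed. Corin was at 5.68, 5.58, 5.74, 5.53 and 5.41 on treated arrays and at 5.26, 6.11, 6.00, 5.97 and 5.49 on control arrays. It was at 5.81, 5.77 and 5.49 at E14.5 and at 5.77, 5.55 and 5.90 at E13.5, and no group separated. Control arrays spread over a wider range for Corin (SD 0.37, n = 5) than treated arrays (SD 0.13, n = 5).

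**Figure D1:**
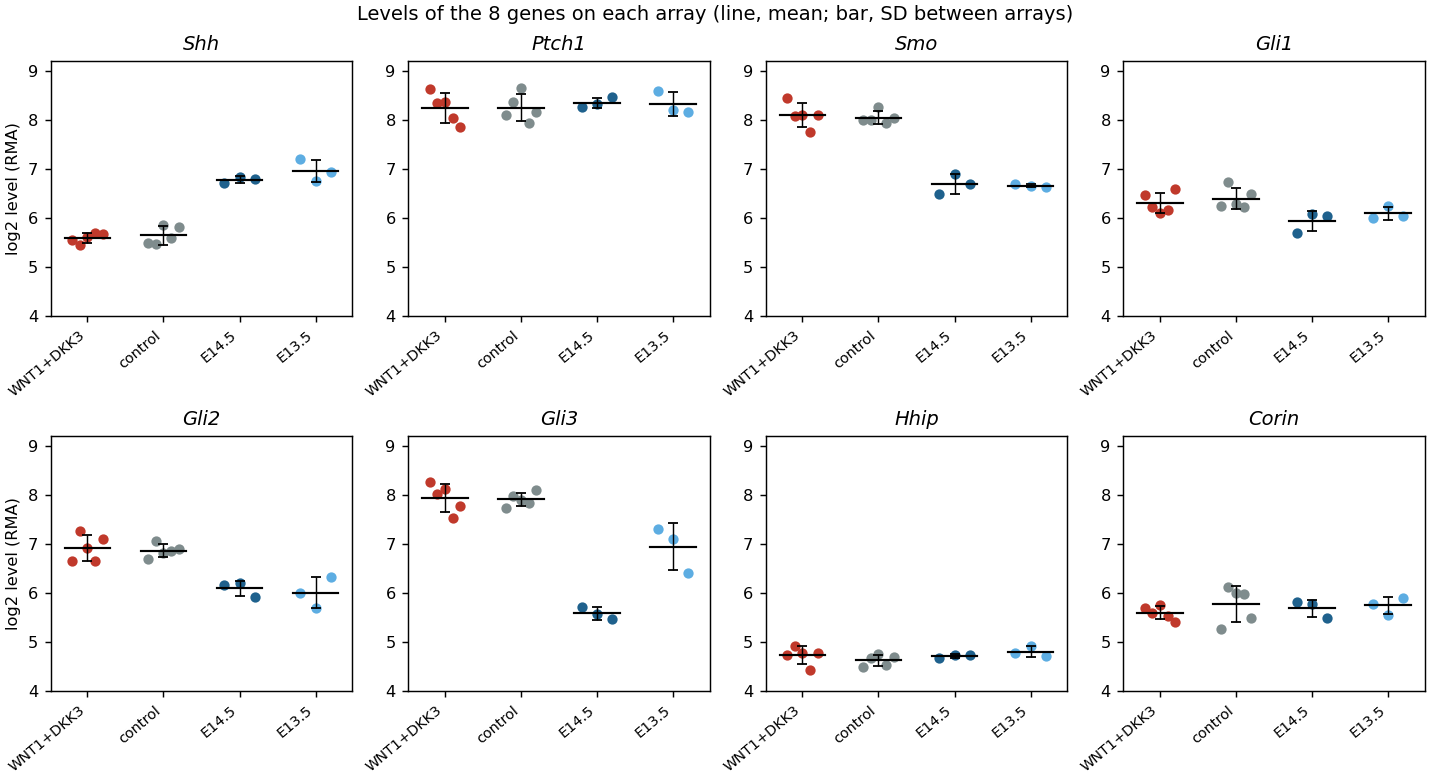
Log2 level of each of the 8 genes (vertical axis) on every array, by group: 5 treated and 5 control iPSC-derived samples, and 3 technical arrays each of primary neurons at E14.5 and E13.5; points are arrays, lines are means and bars are SDs between arrays. Shh is lower, and Smo, Gli2 and Gli3 are higher, on all iPSC-derived arrays than on all primary arrays, and Gli3 has separate levels at the 2 stages.

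The first comparison asks whether WNT1 and DKK3 during differentiation alter these genes. Treated and control arrays were compared with limma over all 19938 genes, and p-values adjusted by Benjamini-Hochberg had to be under 0.05. It called 0 of the 8 members and 0% of all genes in either direction, and 0 of the 8 had an unadjusted p under 0.05, against 300 of all genes. The differences, treated minus control, were -0.05 for Shh, 0.00 for Ptch1, 0.05 for Smo, -0.09 for Gli1, 0.05 for Gli2, 0.04 for Gli3, 0.10 for Hhip and -0.18 for Corin, all with an adjusted p of 1. Corin had the widest departure, with a 95% interval from -0.53 to 0.18, and leaving out 1 array at a time moved its difference to between -0.30 and -0.09. The intervals bound what could have been missed: that of Shh ran from -0.27 to 0.17, that of Ptch1 from -0.37 to 0.37, that of Smo from -0.21 to 0.32, and that of Gli1 from -0.38 to 0.20. That of Gli2 ran from -0.24 to 0.34, that of Gli3 from -0.27 to 0.34 and that of Hhip from -0.12 to 0.33. No interval reached further than 1.45-fold in either direction, or 1.53-fold over all the alternatives tried. Without the arrays numbered 5 the count was also 0.

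The second question is how the iPSC-derived cells compare with primary neurons. Control and treated cells were each set against primary neurons in a single limma fit of 12 samples, in which each stage mean is 1 primary sample. The comparisons share the primary samples, so their values stand side by side and are no support for each other. In this bulk RNA, fewer cells of a type and less RNA per cell cannot be told apart. Of the 8 members, 3 were higher and 1 was lower in control cells, where limma called 19.3% of all genes higher and 22.5% lower. The same 3 were higher and the same 1 was lower in treated cells, where 19.9% of all genes were called higher and 21.3% lower. The share of members that differed was thus close to that of all genes and is no finding about the members as a group. As to overlap, all 10 iPSC-derived arrays were above all 6 primary arrays for 14.1% of genes and below them for 12.7%, and for the 8 members this held for 3 and for 1.

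Shh averaged 5.59 in treated and 5.64 in control cells, against 6.87 in primary neurons (mean of 2 stages). The difference was -1.28 for treated cells (SE 0.13, adjusted p = 8.7e-06, 2.43-fold lower) and -1.23 for control cells (SE 0.13, adjusted p = 1.2e-05, 2.34-fold lower). Of all genes, 6.07% were at least as far below primary neurons as Shh in control cells.

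Smo averaged 8.10 in treated and 8.05 in control cells, against 6.67 in primary neurons. It was 2.69-fold higher in treated cells (1.43, SE 0.15, adjusted p = 1.3e-05) and 2.59-fold higher in control cells (1.38, SE 0.15, adjusted p = 1.8e-05). Of all genes, 7.49% were at least as far above primary neurons as Smo in control cells.

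Gli2 averaged 6.91 in treated and 6.86 in control cells, against 6.05 in primary neurons, a difference of 0.87 for treated cells (SE 0.17, adjusted p = 0.00123, 1.82-fold higher) and of 0.82 for control cells (SE 0.17, adjusted p = 0.00184, 1.76-fold higher). Gli3 averaged 7.94 in treated and 7.91 in control cells, against 6.26 in primary neurons. It was 3.21-fold higher in treated cells (1.68, SE 0.29, adjusted p = 0.00057) and 3.13-fold higher in control cells (1.65, SE 0.29, adjusted p = 0.00065). The size depends on the stage. Against E14.5 alone Gli3 was higher by 2.36 in treated and 2.33 in control cells, and against E13.5 alone by 1.00 and 0.96. A fit on a single stage holds 1 primary sample. It measures no spread between primary samples, so no p-value is given. For Shh, Smo and Gli2 the stages gave like values. In control cells Shh differed by -1.14 from E14.5 alone and by -1.32 from E13.5 alone, Smo by 1.36 from E14.5 and 1.39 from E13.5, and Gli2 by 0.77 from E14.5 and 0.86 from E13.5.

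Of the 3 members that the pathway itself switches on, Ptch1, Gli1 and Hhip, 0 passed the test. Over all genes, 19.9% passed as higher and 21.3% as lower in treated cells, and 19.3% and 22.5% in control cells. Most genes thus did not pass, and the count is no finding about these 3 as a group. Ptch1 differed by -0.09 in both comparisons (SE 0.21, adjusted p = 0.747 for treated and 0.745 for control cells). The 95% interval of this difference ran from -0.55 to 0.37, which does not show equality. Gli1 was at 6.30 in treated and 6.39 in control cells, against 6.01 in primary neurons, a difference of 0.29 for treated (adjusted p = 0.183) and 0.38 for control cells (adjusted p = 0.0866). With stage as a random block over all 6 primary arrays Gli1 passed in control cells (adjusted p = 0.0153) and not in treated cells (adjusted p = 0.0552). Those are technical arrays of 2 samples, so this fit leans on technical spread. Hhip differed by -0.03 (adjusted p = 0.877) in treated and -0.13 (adjusted p = 0.43) in control cells. Corin, the floor plate protease, differed by -0.13 (adjusted p = 0.636) in treated and 0.05 (adjusted p = 0.849) in control cells. With the arrays numbered 5 left out, 3 members were again higher and 1 lower in both kinds of cells, with differences of -1.30 in treated and -1.27 in control cells for Shh, 1.42 and 1.38 for Smo, 0.82 and 0.80 for Gli2 and 1.72 and 1.60 for Gli3.

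Markers of other cells also differed between iPSC-derived cells and primary neurons. For comparison, limma called 19.9% of all genes higher and 21.3% lower in treated cells, and 19.3% and 22.5% in control cells. Of 12 markers of neural progenitors and glia, 10 were higher in treated and 10 in control cells. Their mean level was 8.84 to 9.47 on treated and 8.74 to 9.38 on control arrays, against 6.69 to 7.03 on E14.5 and 6.51 to 6.76 on E13.5 arrays. All 10 mesenchymal markers were higher, with a mean level of 8.55 to 9.60 on treated and 8.70 to 9.71 on control arrays, against 5.65 to 5.79 on E14.5 and 5.46 to 5.58 on E13.5 arrays, where Lum was below the lower quartile on every array. The glial connexin gene Gja1 differed by 5.67, and the collagen-binding proteoglycan gene Dcn by 5.68, in control cells. All 10 general neuron markers were lower, with a mean level of 5.87 to 8.06 on treated and 5.94 to 7.77 on control arrays, against 10.4 to 10.5 on E14.5 and 10.3 to 10.6 on E13.5 arrays. Of the other marker lists, 6 of 10 genes of endoderm and epithelium, 2 of 5 of endothelium, 1 of 5 of microglia and 3 of 6 of muscle were higher in control cells, and 2 microglial genes were lower. Lists of 5 or 6 genes are too short to set such counts against the share of all genes. In the endoderm and epithelium list Ttr, Epcam, Cdh1, Krt8, Krt18 and Cldn6 were higher. The endoderm genes Sox17, Afp, Gata4 and Gata6 did not pass. Of 8 pluripotency genes 0 were higher and 1 was lower by limma in control cells, with Nanog at 6.40 to 10.14 on treated and 6.42 to 9.32 on control arrays, against 5.88 to 6.46 on E14.5 and 5.82 to 6.81 on E13.5 arrays. With the arrays numbered 5 left out, 6 of the 8 pluripotency genes were higher in treated and 6 in control cells and 0 were lower, and 11 of the 12 progenitor and glial markers were higher in both. The 12 dopaminergic and the 10 neuron markers then were all lower and the 10 mesenchymal ones all higher, in treated as in control cells. The part of these markers in the differences of Shh, Smo, Gli2 and Gli3 was not tested.

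**Figure D2:**
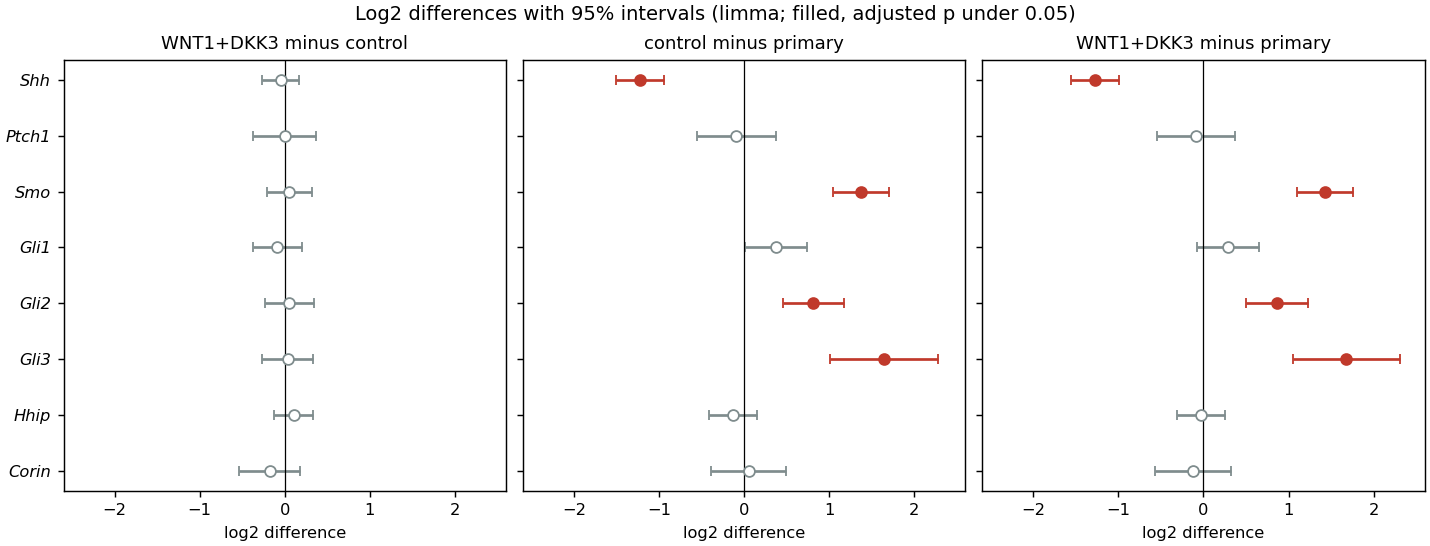
Log2 difference of each of the 8 genes (horizontal axis) with its 95% interval from limma, in the comparisons of treated with control cells, control cells with primary neurons and treated cells with primary neurons; filled points have an adjusted p under 0.05. No member is filled for treated against control, and Shh (negative), Smo, Gli2 and Gli3 (positive) are filled against primary neurons.

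The third comparison asks what changes between the stages of the primary neurons. With 1 sample per stage there was no test, and a gene counted as different where the stage means differed by at least 1 and the 3 technical arrays of each stage did not overlap. By this rule 0.176% of all genes were higher at E14.5 and 0.0652% were lower. Of the 8 members, 0 were higher and 1, Gli3, was lower. Gli3 averaged 5.58 ± 0.13 at E14.5 and 6.94 ± 0.47 at E13.5 (SD over 3 technical arrays each), a difference of -1.36, or 2.57-fold lower at E14.5. It ranks 8 from the lower end among the 19938 genes. Leaving out 1 technical array at a time gave -1.63 to -1.18. The other differences, E14.5 minus E13.5, were -0.18 for Shh, 0.03 for Ptch1, 0.04 for Smo, -0.16 for Gli1, 0.09 for Gli2, -0.09 for Hhip and -0.05 for Corin, and the arrays of the stages overlapped in all of these. Technical arrays show error of the measurement but not the spread between litters or sorts. The mean level of the progenitor and glial markers was 6.69 to 7.03 at E14.5 and 6.51 to 6.76 at E13.5, and 0 of the 12 passed the same rule. Their part in the difference of Gli3 was not tested.

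**Figure D3:**
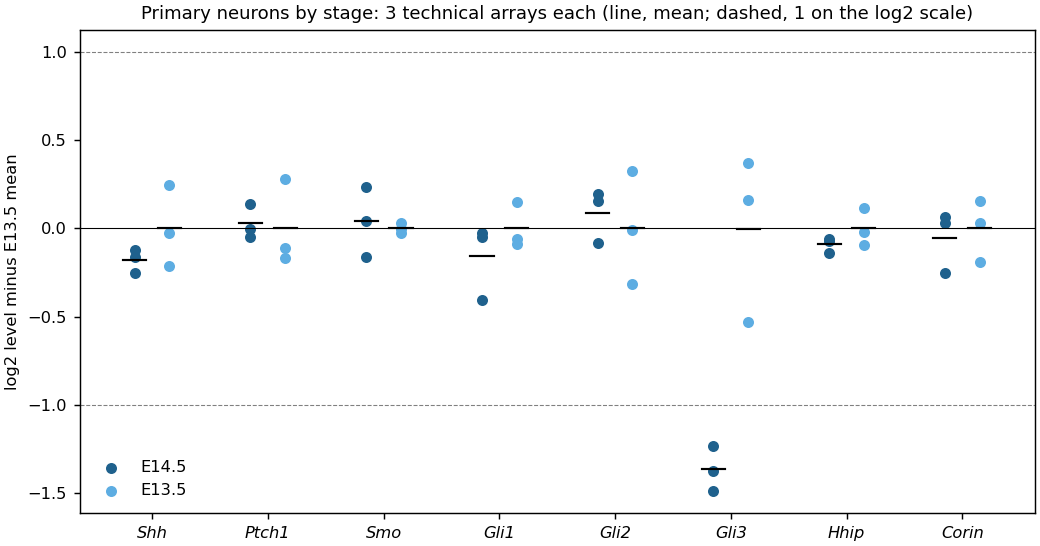
Log2 level of each of the 8 genes minus its E13.5 mean (vertical axis), for E14.5 and E13.5; points are the 3 technical arrays of each stage, lines are their means and dashed lines mark 1 on either side of 0. The Gli3 arrays of the 2 stages are separate, and those of the other genes overlap.

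Genes with profiles like those of the members were sought over the 12 samples, by the root mean square difference of log2 levels after each gene's own mean was taken off. Only Shh, Smo and Gli3 had an SD of at least 0.5 over these samples. Nearest to Shh were Kcnj3, a potassium channel subunit gene, at 0.083, Basp1, a growth cone protein gene, at 0.102, and Lrtm1 at 0.114. Nearest to Smo were Shisa4 at 0.106, Rnf13 at 0.112 and Laptm4a at 0.117. Nearest to Gli3 were Itm2c at 0.198, Abhd4 at 0.204 and Cpt2, a mitochondrial fatty acid enzyme gene, at 0.225. The profiles of Ptch1, Gli1, Gli2, Hhip and Corin had SDs of 0.25, 0.23, 0.38, 0.14 and 0.25, too small for a ranking. Since 10 of the 12 samples are iPSC-derived and the other 2 primary, likeness here mainly means a like step between the kinds.

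The other genes of the pathway were grouped in 6 lists by role, together 90 genes of which 84 were measured. Between treated and control cells limma called 0 of the 84, and 0 of them had an unadjusted p under 0.05. Of 7 genes of ligand maturation and release measured, 1 was higher and 2 were lower in treated cells, and 1 was higher and 1 lower in control cells. The shares over all genes were 19.9% higher and 21.3% lower in treated cells, and 19.3% and 22.5% in control cells. The list had a median difference of -0.15 in both, against -0.09 and -0.11 over all genes. After median centring 0 of the 7 were higher and 4 lower in treated cells (median -0.36), and 1 was higher and 4 were lower in control cells (median -0.34). Disp1, which exports the lipid-bearing ligand, was higher by 0.60 in treated (adjusted p = 0.009) and 0.73 in control cells (adjusted p = 0.00262). Scube3, of a family of secreted proteins that help release the ligand, differed by -1.02 in treated (adjusted p = 0.00022) and by -1.11 in control cells (adjusted p = 0.00012). Hhat, which attaches the palmitate to the ligand, differed by -0.65 in treated cells (adjusted p = 0.0176) and by -0.51 in control cells, where it did not pass (adjusted p = 0.0511). The other ligand genes Ihh and Dhh differed by -0.15 and -0.17 in control cells and did not pass. Without the arrays numbered 5, 1 gene of release was higher and 2 were lower, in treated as in control cells.

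Most measured genes of ligand reception at the cell surface were higher. Of 8 measured, 7 in treated and 6 in control cells passed as higher and 0 as lower. Over all genes, 19.9% passed as higher in treated and 19.3% in control cells. The list had median differences of 1.16 and 1.13, against -0.09 and -0.11 over all genes. It was chosen with earlier results of these data known. Gpc3, a glypican that competes with Ptch1 for the ligand, averaged 9.74 ± 0.46 in treated and 9.92 ± 0.38 in control cells (SD, n = 5 each), against 5.37 in primary neurons, a difference of 4.37 for treated (adjusted p = 3.8e-07) and 4.55 for control cells (adjusted p = 2.7e-07). Gpc4, another glypican, was higher by 3.59 in treated and 3.46 in control cells, and Gpc6 by 1.11 and 1.15. The co-receptor genes Boc and Gas1 were higher by 1.41 and 1.05 in treated and by 1.54 and 0.95 in control cells, while the third co-receptor gene, Cdon, differed by -0.69 in treated and -0.38 in control cells and did not pass (adjusted p = 0.257 and 0.526). Hhipl1, which is named for its likeness to Hhip, was higher by 0.43 in treated cells (adjusted p = 0.0442) and differed by 0.32 in control cells, where it did not pass (adjusted p = 0.115). Lrp2, an endocytic receptor that binds Shh, was higher by 1.21 in treated and 1.12 in control cells (adjusted p = 0.033 and 0.0454). Against either stage alone, with 1 primary sample in the fit, fewer of the 8 passed, in treated as in control cells. Without the arrays numbered 5, 6 were higher in both kinds of cells and 1 was lower in treated cells. After median centring 5 of the 8 were higher and 0 lower in both kinds of cells (median 0.95 in treated and 0.94 in control cells). Gpc3 and the mesenchymal markers above were high on the same arrays, and the part of those cells was not tested.

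Between Smo and the Gli proteins, 5 of 14 measured genes were higher and 3 lower in treated cells, and 3 were higher and 3 lower in control cells. The shares over all genes were 19.9% higher and 21.3% lower in treated cells, and 19.3% and 22.5% in control cells. Zic2, a zinc finger gene related to the Gli family, was higher by 2.50 in treated and 2.45 in control cells. Gpr161, a ciliary receptor that restrains the pathway, was lower, with differences of -1.37 in treated and -1.31 in control cells, as was Arrb2, a beta-arrestin gene, with -1.15 and -1.21. The median difference was 0.17 in treated and 0.08 in control cells, and became -0.03 and -0.11 after median centring of the arrays, so no common direction is given. With the arrays numbered 5 left out, 5 were higher and 3 lower in treated cells, and 4 and 3 in control cells.

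Among 16 known targets of the pathway in various tissues, 6 were higher and 3 lower in treated cells, and likewise 6 and 3 in control cells. Over all genes 19.9% were higher and 21.3% lower in treated cells, and 19.3% and 22.5% in control cells. Osr1, a transcription factor gene of mesoderm, was higher by 3.25 in treated and 3.61 in control cells, and Foxd1, of kidney and other stroma, by 2.28 and 2.57. Foxa2, a target in the floor plate that mdDA neurons keep, was lower, with differences of -2.67 in treated and -2.80 in control cells (adjusted p = 4.1e-05 and 2.7e-05). It averaged 6.91 ± 0.47 in treated and 6.78 ± 0.46 in control cells (SD, n = 5 each), against 9.53 at E14.5 and 9.63 at E13.5. The counts were again 6 and 3 in both kinds of cells without the arrays numbered 5.

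The floor plate list was lower for most of its members. Of 16 measured genes, 9 were lower in treated and 9 in control cells, and 3 and 4 were higher. Limma called 21.3% of all genes lower and 19.9% higher in treated cells, and 22.5% and 19.3% in control cells. The list had medians of -1.11 and -0.93, against -0.09 and -0.11 over all genes. Foxa1, a forkhead gene close to Foxa2, was lower, with differences of -3.19 in treated and -3.36 in control cells (adjusted p = 4.2e-07 and 2.7e-07). Lmx1b, a LIM homeobox gene of the midbrain floor plate and its neurons, was lower, with differences of -2.25 in treated and -2.34 in control cells. The guidance cue genes Slit1, Ntn1 and Slit2 were lower, with differences of -1.83, -1.39 and -1.25 in treated and of -2.10, -1.43 and -1.18 in control cells. Wnt5a, Otx2, a midbrain homeobox gene, and Ferd3l were lower, with differences of -1.42, -1.10 and -0.74 in treated and of -1.34, -0.96 and -0.90 in control cells. Slit3, Msx1, a homeobox gene of midbrain progenitors, and Sulf1, a heparan sulfatase gene, were higher by 1.96, 1.89 and 0.84 in treated and by 1.99, 1.96 and 0.89 in control cells. Msx2 was higher by 1.49 in control cells (adjusted p = 0.0344) and differed by 1.35 in treated cells, where it did not pass (adjusted p = 0.0528). Foxa2 and Lmx1b stand among the dopaminergic markers too, all 12 of which were lower, and the part of those neurons in the floor plate list was not tested. Without the arrays numbered 5, 4 of the floor plate genes were higher and 10 lower in treated cells, and likewise 4 and 10 in control cells.

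**Figure D4:**
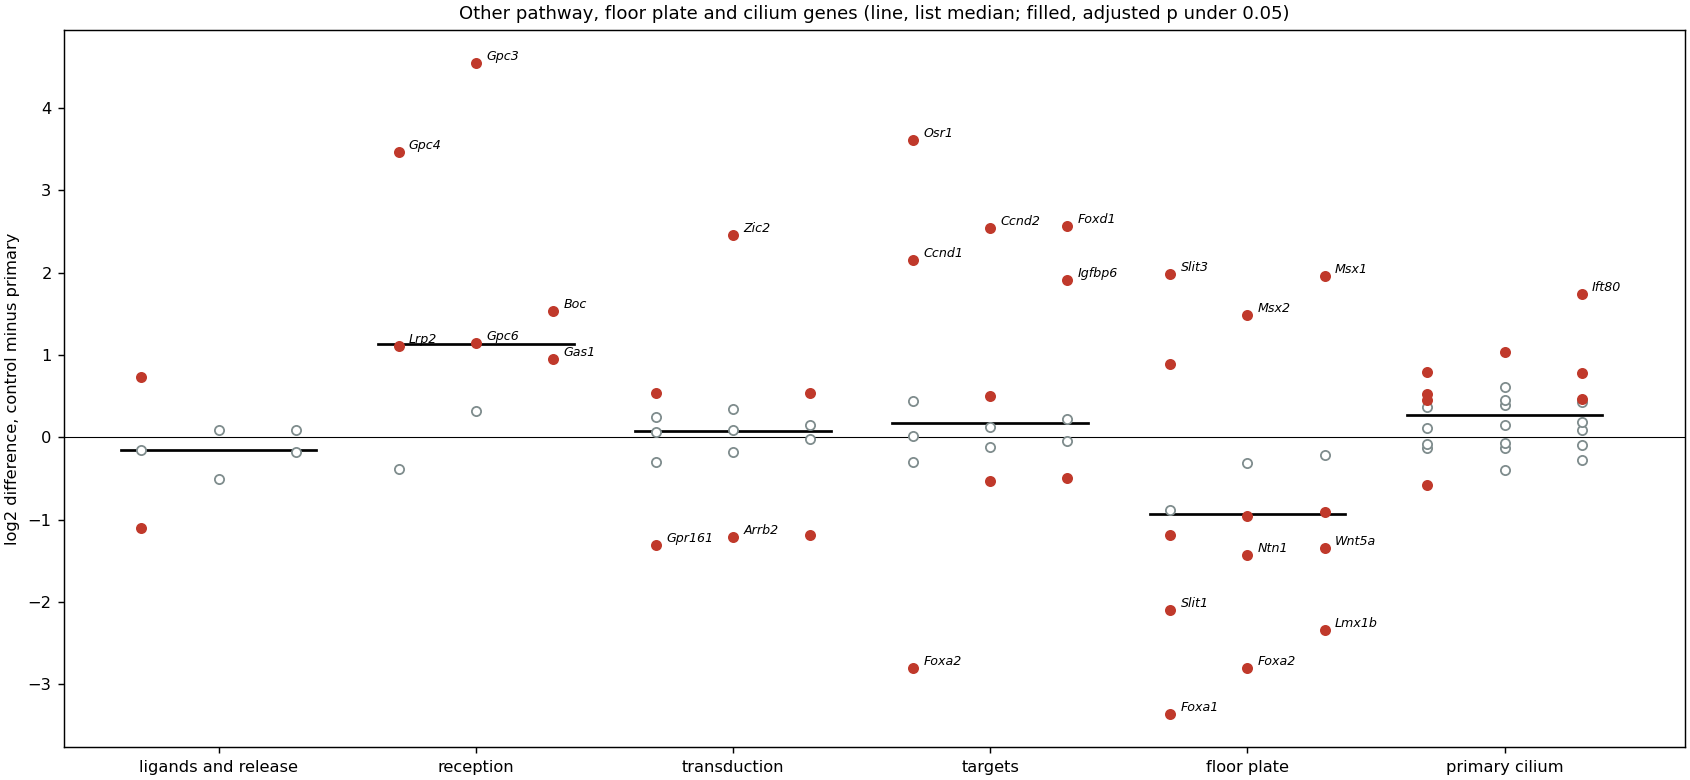
Log2 difference of control iPSC-derived cells minus primary neurons (vertical axis) for the measured genes of the 6 lists; points are genes, lines are list medians and filled points have an adjusted p under 0.05 by limma. The reception genes have a median of 1.13 and the floor plate genes one of -0.93, and genes of transduction and the targets lie on both sides of 0.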

How the data were processed

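The authors deposited log2 expression values of 35556 probe sets on 16 arrays, and these were used as they are. RMA, a method of background correction, normalization and probe summary, and Affymetrix Expression Console 1.2 are named in the submitters' processing notes with no role for either. No source says if a single normalization covered all 16 arrays. Amplification of the RNA, done with Nugen's Ovation PicoSL WTA kit per the labels' protocols, can add spread between arrays. Normalized levels are relative to the rest of the array. The number of arrays limits the precision.

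Gene names came from the probe table of the platform: 21789 have 1 symbol, 1621 several and 12146 are not listed. Symbols of 21698 were updated through Entrez IDs with RefSeq's gene table of GRCm38.p6. With the probe set of highest mean for the 999 genes with more than 1, this gave 19938 genes, and none was filtered out.

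The tests were made in limma 3.58.1 (R 4.3.3) by lmFit followed by eBayes, with Benjamini-Hochberg adjustment over all genes and a threshold of 0.05. The code was also run on simulated arrays with known changes. These had the spread of control arrays in every group, unlike the averaged primary samples, so they bear on the code alone. Treated against control used 10 arrays, and the primary comparisons used 12 samples in 3 groups, the 3 technical arrays of a stage being averaged. No array held the values of another. Alternatives were other scalings, a filter on low levels, probe set averages, array weights, a moderated trend, left-out arrays, single stages and blocks. The members, the lists and the rule for naming genes were chosen with earlier results of these data known. Genes open to naming were all members, the 3 genes of each list farthest from primary neurons in control cells, and every gene of the lists of reception, release and floor plate that passes in either kind of cell. Ihh, Dhh, Cdon and the rest of the endoderm and epithelium list are named beyond this rule.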

Additional observations from a re-analysis of the deposited data

Results flagged for a closer look

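In groups of 5 arrays, a value was looked at again where its gap to the nearest other array was a larger share of the group's range than Dixon's 95% limit, which chance passes in about 1 of 20 groups. Of 132 pairs of gene and group over 66 genes, 14 passed. The only member among them was Smo, which was at 8.267 on control array 3, against 7.942 to 8.032 on the other control arrays.

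Of the 14, 11 were on arrays numbered 5. There the dopaminergic genes were high. Th was at 9.218 on treated array 5 and 8.517 on control array 5, Slc18a2, the vesicular monoamine transporter gene, at 8.249 on treated array 5 and 7.436 on control array 5, and En2, a midbrain homeobox gene, at 7.394 on control array 5. Of the neuronal genes, Dcx was at 7.841 and Syt4 at 7.553 on treated array 5, and Slit1, a guidance cue gene, was at 6.501 on control array 5. The pluripotency genes were low, with Dppa5a at 5.946 and Tdgf1 at 4.706 on treated array 5 and Nanog at 6.418 on control array 5. The others were Gpc4, low at 8.606 on treated array 4, and Actc1, a muscle actin gene, low at 7.038 on control array 1.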

How the results depend on the processing

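The lower Shh and the higher Smo, Gli2 and Gli3 against primary neurons kept their direction in limma under all 22 alternatives. They kept an adjusted p under 0.05 wherever both stages were in the fit. Fits on a single stage hold 1 primary sample and bear on the direction alone. No member passed between treated and control cells under any of 19. Median centring lowered every difference from primary neurons by 0.207 in treated and 0.188 in control cells and gave 3059 genes higher and 8787 lower in treated (25.8% higher, against 48.3%) and 3046 and 8833 in control cells (25.6%, against 46.2%). Against a single stage, with 1 primary sample, fewer genes were called lower than with both stages, in treated as in control cells. For stages, a threshold of 0.5 gave 301 genes higher and 225 lower, against 35 and 13, and leaving out technical arrays gave 49 to 70 and 19 to 38. Whether replicate numbers pair the samples is unknown. Deviations of treated and control arrays with the same number correlated at 0.0448 for number 1 and 0.435 to 0.798 for the others, and 7 of 10 arrays correlated best with their own number, a hint from the data and not from the design. The replicate block gave 1 gene between treated and control cells, with 834 genes at an unadjusted p under 0.05 against 300. It let Gli1 pass in control cells against primary neurons (0.38, adjusted p = 0.0453), unlike the main fit (adjusted p = 0.0866). Over the alternatives this difference of Gli1 ran from 0.19 to 0.46.

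Only differences that never passed changed sign. Leaving out 1 array at a time gave treated minus control ranges of -0.0931 to 0.0049 for Shh, -0.033 to 0.1372 for Smo, -0.0345 to 0.1188 for Gli2 and -0.0457 to 0.1383 for Gli3. Against primary neurons it gave -0.185 to 0.0093 for Ptch1 and -0.0757 to 0.0463 for Hhip in treated cells, and -0.034 to 0.1785 for Corin in control cells. Corin became -0.1362 in control cells after median centring. Hhip became 0.151 in treated and 0.0682 in control cells after another quantile normalization, and 0.0179 in treated cells against E14.5 alone. Ptch1 became 0.0092 in treated cells without the arrays numbered 5. The cause was not tested.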

Other observations

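The primary cilium, the organelle at which Smo acts on the Gli proteins, was followed through 24 measured genes of its transport and gate. Against primary neurons, limma called 9 higher and 2 lower in treated cells and 7 higher and 1 lower in control cells. Of all genes it called 19.9% higher and 21.3% lower in treated cells, and 19.3% and 22.5% in control cells. The list had median differences of 0.22 and 0.28, against -0.09 and -0.11 over all genes. Ift80, a subunit of the intraflagellar transport machinery, was higher by 1.71 in treated cells (adjusted p = 7.6e-06) and 1.74 in control cells (adjusted p = 6.4e-06). Tctn2, of the transition zone at the base of the cilium, was higher by 0.99 and 1.04, and Ift122, another transport subunit, by 0.74 and 0.80. After median centring the counts were 4 higher and 2 lower in treated and 4 higher and 4 lower in control cells, so no common direction of the list is given. Without the arrays numbered 5 they were 9 and 2 in treated and 9 and 2 in control cells. Between treated and control cells 0 of the 24 passed, and 0 had an unadjusted p under 0.05.

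The data hold 1 sample for each primary stage, and their technical arrays cannot show how Gli3 varies between embryos. No file gives a detection call, which limits what can be said of Hhip.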
